A study of Homo sapiens with 12 samples.

Results

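The siMESH1-7002 experiment set RCC4 cells transfected with an siRNA against MESH1 beside RCC4 cells transfected with a non-targeting siRNA (siNT), and it holds 6 of the 12 RNA-seq libraries of the study. The 6 libraries were chosen by their labels and not by any measured value. They are 3 libraries of siMESH1-7002 (the study's siMESH1#2) and the 3 siNT libraries made for that siRNA. The other 6 libraries hold another siRNA, siMESH1-CDS (siMESH1#1), and its own siNT. RCC4 is an established human line of clear cell renal carcinoma that lacks a working VHL protein, and HIF-2α is stable in such cells, in either group. Both groups were transfected with 40 pmol of siRNA in Lipofectamine RNAiMAX and collected 72 h later, and siNT was the AllStars negative control. The data thus describe 1 cell line, 1 siRNA, 1 dose and 1 time point.

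MESH1 is the protein of the gene HDDC3, the metazoan relative of the bacterial enzymes that hydrolyse the alarmone (p)ppGpp in the stringent response, the programme by which starved bacteria slow growth and ribosome production. Human cells have no established alarmone synthetase, and MESH1 was described as a phosphatase of NADPH, the cofactor that supplies reducing power for synthesis and for defence against lipid peroxidation. The study asked how losing MESH1 guards cells against ferroptosis, and whether their transcription then resembles that of bacteria in the stringent response. The programmes described here include the cell cycle and the integrated stress response, which runs from phosphorylated eIF2α to the transcription factor ATF4 and its target genes.

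The siRNA acts through its guide strand, which pairs with the target mRNA. The labels list the 21-base target, which lies in the 3′UTR of HDDC3 in the last exon (exon 4 of 4 of its transcript ENST00000394272.7, GENCODE release 29) at chr15:90931109-90931129 on the minus strand of GRCh38. The sequences are shown because the same 7 letters recur in genes described further down. Capitals mark the seed, guide bases 2 to 8, and its match in the target, and the guide is taken as the reverse complement of the listed target.
Target in HDDC3: ctgaaggtctcctGCTAACTa
Guide: uAGUUAGCaggagaccuucag

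Each library held between 24787804 and 31651125 reads in genes, which covered 15988 to 16208 genes with at least 1 read. The 3 siNT libraries were not equally alike. Across all genes the squared differences between siNT replicates 1 and 2 came to 2.591 times those of read sampling (a chi-square per degree of freedom), against 12.944 and 8.697 for the pairs with siNT replicate 3 and 2.243 to 3.884 among the siMESH1-7002 pairs. The 100 most abundant genes took 17.4% to 17.62% of reads with siNT and 18.44% to 18.68% with siMESH1-7002. The labels call the libraries biological replicates and do not say whether each came from a transfection of its own, so every p-value measures the spread between these libraries. Markers of the line were present in all 6: the renal transcription factor PAX8 ranged from 403 to 479 CPM, the reads in a gene per 1000000 reads in all genes after TMM scaling. Of 7 leukocyte markers only CD68, a lysosomal protein also made by tumour cells, passed the filter on low counts, of 7 fibroblast markers 2 passed, and of 6 endothelial markers none did, with a summed level of 0.137 CPM for siNT and 0.0784 CPM for siMESH1-7002.

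The targeted transcript was low in every siMESH1-7002 library. HDDC3 stood at 13.9, 13.1 and 12.7 CPM with siNT and 1.25, 1.18 and 1.72 CPM with siMESH1-7002. The groups did not overlap, and 10.4% of the siNT level was left (8.93% to 13% in single libraries). The fall was a log2 fold change of -3.25 (SE 0.129, adjusted p = 2.51e-12, edgeR quasi-likelihood test with Benjamini-Hochberg adjustment over all genes tested, as for every adjusted p here). An exact permutation test of the CPM over the 6 libraries, two-sided, gave p = 0.1, the smallest that 3 against 3 allows.

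The response to siMESH1-7002 was broad, and most of it was small. Of 13568 genes tested, 3613 (26.6%) were called higher and 3622 (26.7%) lower at an adjusted p under 0.05. In 8079 genes (59.5%) the 3 values of one group all lay above those of the other. The genes that fell did so further than the genes that rose: 551 genes fell at least 2-fold and 168 rose at least 2-fold, and at 4-fold the counts were 117 and 11. The median change was 0.34 among genes called higher and -0.41 among genes called lower (log2). The genes with the largest falls were led by cell cycle genes, and those with the largest rises by genes of secretion, signalling and growth arrest, described below.

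Libraries of a group varied little. The median SE of a log2 fold change was 0.0698, a coefficient of biological variation of 0.049 was fitted over the 6 libraries, and the smallest change called was 0.1 on the log2 scale. Of the called genes, 1078 rose and 851 fell by less than 0.25 (log2). For 3285 genes (24.2%) the 95% interval lay wholly within 0.25 of no change, and 237 of these were called. Resolution depended on level: the median half-width of the interval was 0.659 below 1 CPM, where 22.5% of genes were called, and 0.101 from 100 CPM up, where 63.6% were called. A correction for transcript GC content moved the split from 3613 and 3622 to 5144 higher and 3179 lower. It also moved the median log2 fold change of all genes from 0.005 to 0.07, a shift near the size of the median SE. In bulk RNA of this kind, fewer cells of a type and less RNA per cell cannot be told apart.

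**Figure D1:**
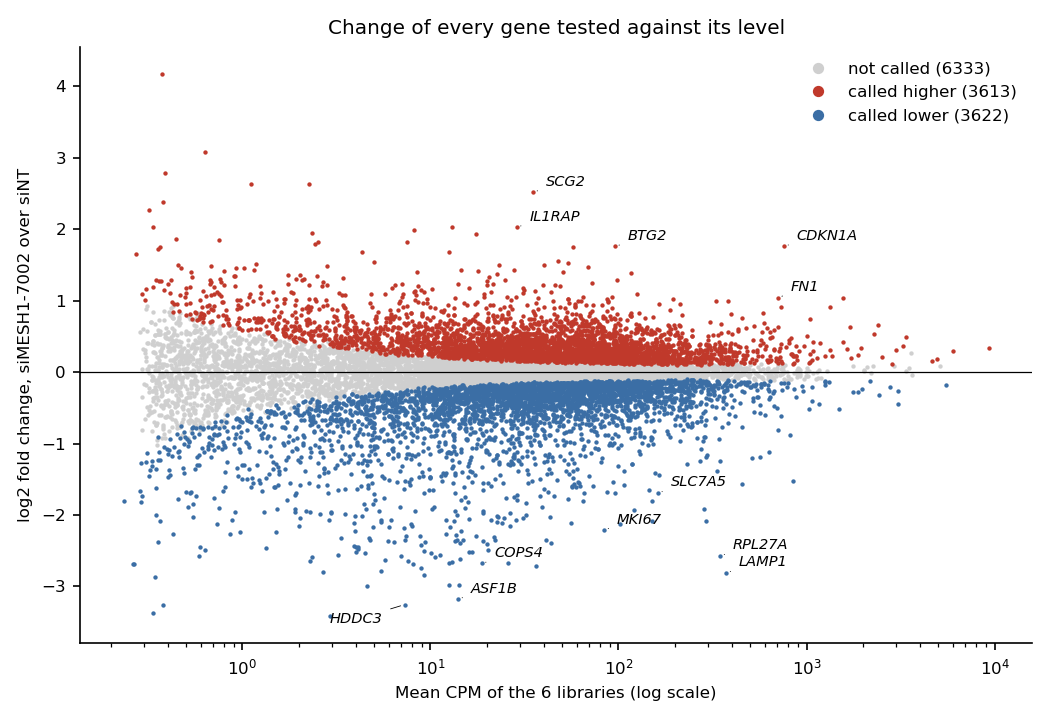
Log2 fold change (siMESH1-7002 over siNT) of each of the 13568 genes tested against its mean level over the 6 libraries (CPM, log axis), with genes called higher, lower or neither in separate colours. The cloud narrows toward high levels, and the long tail lies below 0, where 551 genes fell at least 2-fold against 168 above.

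Genes of cell division fell together, in lists written by hand with earlier results of these data known. Of 79 mitotic genes tested, all 79 were called lower and 71 fell at least 2-fold. Of 43 genes of replication licensing and the replication fork, 42 were called lower and 29 fell at least 2-fold. Among all genes 26.7% were called lower. The 5 cell cycle and repair lists (replication, nucleotide supply, E2F factors with G1/S cyclins, mitosis, homologous recombination) hold 212 of the 13568 genes tested (1.56%). They held 130 of the 551 genes that fell 2-fold (23.6%) and 1 of the 168 that rose 2-fold (0.595%). Most genes that fell 2-fold thus lay outside these lists.

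At the origins of replication, the loader CDC6 and the helicase activator CDC45 (log2 fold change -2.78) fell to a fraction of their siNT level. CDC6 read 18.5, 19.1 and 19.9 CPM with siNT and 3.64, 3.14 and 3.00 CPM with siMESH1-7002 (log2 fold change -2.55, SE 0.0958, adjusted p = 1.33e-12). The helicase subunit MCM6 was less reduced, at 78.8, 78.9 and 80.6 CPM with siNT and 31.8, 29.5 and 27.8 CPM with siMESH1-7002 (log2 fold change -1.42, SE 0.0585, adjusted p = 4.23e-12). The sliding clamp PCNA, which also serves repair, stood at 85.7, 87.4 and 88.0 CPM with siNT and 51.7, 52.8 and 53.3 CPM with siMESH1-7002 (log2 fold change -0.73, SE 0.0493, adjusted p = 2.45e-09). In CDC6, MCM6 and PCNA the groups stood apart. The histone chaperone ASF1B, which hands histones to new chromatin behind the fork, was lowest of the list with 26.0, 25.8 and 24 CPM with siNT and 2.81, 2.74 and 2.84 CPM with siMESH1-7002 (log2 fold change -3.17, SE 0.0898, adjusted p = 7.48e-14). The GINS subunit GINS1, part of the active helicase, had 24.6, 23.9 and 27.0 CPM with siNT and 2.95, 3.24 and 3.40 CPM with siMESH1-7002 (log2 fold change -2.97, SE 0.0937, adjusted p = 2.83e-13). The 1 member called higher was RPA2, a subunit of the single-strand binding protein, with a log2 fold change of 0.21 (adjusted p = 0.0271), a call lost with DESeq2 and without any one of siNT replicates 1 and 2 or siMESH1-7002 replicates 1 and 2. The summed level of the list went from 1812 ± 34.4 CPM with siNT to 852 ± 5.81 CPM with siMESH1-7002 (SD, n = 3 each).

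Of 28 genes of nucleotide supply, 19 were called lower (67.9%, against 26.7% of all genes) and 6 higher (21.4% against 26.6%). RRM2, the S-phase subunit of ribonucleotide reductase, had 31.0, 30.6 and 33.4 CPM with siNT and 6.59, 5.88 and 6.04 CPM with siMESH1-7002 (log2 fold change -2.36, SE 0.0791, adjusted p = 4.69e-13), and thymidine kinase TK1 had 98.2, 89.5 and 83.1 CPM with siNT and 21.2, 20.9 and 20.7 CPM with siMESH1-7002 (log2 fold change -2.11, SE 0.0662, adjusted p = 2.75e-13). The large reductase subunit RRM1 (log2 fold change -0.83) and thymidylate synthase TYMS (-0.68) fell by less. RRM2B, the reductase subunit that p53 induces outside S phase, moved the other way, from 40.6, 45.2 and 51.1 CPM with siNT to 71.6, 76.1 and 72.8 CPM with siMESH1-7002 (log2 fold change 0.69, SE 0.0696, adjusted p = 3.54e-07). NT5E, an ectonucleotidase that makes adenosine at the cell surface, was the highest riser of the list (log2 fold change 1.01, SE 0.0649, adjusted p = 1.21e-09).

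Among the factors that turn on S-phase genes, E2F1 had 29.9, 27.7 and 26.9 CPM with siNT and 4.82, 4.73 and 5.15 CPM with siMESH1-7002 (log2 fold change -2.52, SE 0.083, adjusted p = 4.03e-13), and E2F2, the member that fell furthest, had 5.45, 5.18 and 5.36 CPM with siNT and 0.624, 0.439 and 0.429 CPM with siMESH1-7002 (log2 fold change -3.42, SE 0.175, adjusted p = 6.68e-11). Cyclin E1, CCNE1, partner of CDK2, fell by less (log2 fold change -0.88, SE 0.099, adjusted p = 1.27e-06), and CDK2 itself had 34.1, 33.2 and 30.6 CPM with siNT and 20.2, 23.5 and 22.4 CPM with siMESH1-7002 (log2 fold change -0.56, SE 0.0713, adjusted p = 4.7e-06). The D cyclins, which carry growth signals to CDK4 and CDK6, did not move as one. CCND1 had 517, 503 and 484 CPM with siNT and 326, 337 and 321 CPM with siMESH1-7002 (log2 fold change -0.61, SE 0.0421, adjusted p = 2.92e-09), whereas CCND2 had 32.2, 34.0 and 35.8 CPM with siNT and 64.5, 64.0 and 63.6 CPM with siMESH1-7002 (log2 fold change 0.92, SE 0.0565, adjusted p = 7.22e-10). In the whole list, of 27 members tested, 3 were called higher, 18 lower and 6 neither, with a median log2 fold change of -0.56. The shares were 11.1% higher and 66.7% lower, against 26.6% and 26.7% of all genes.

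The mitotic list fell furthest of all, with a median log2 fold change of -1.91 and a summed level that went from 2299.9 ± 15 CPM with siNT to 796 ± 7.45 CPM with siMESH1-7002 (SD, n = 3 each), a ratio of 0.346. The Polo kinase PLK1, which drives entry into mitosis, had 36.3, 34.7 and 31.6 CPM with siNT and 6.24, 5.24 and 6.87 CPM with siMESH1-7002 (log2 fold change -2.48, SE 0.0929, adjusted p = 1.33e-12). The proliferation antigen MKI67 had 142, 136 and 136 CPM with siNT and 31.1, 28.0 and 30.6 CPM with siMESH1-7002 (log2 fold change -2.21, SE 0.0559, adjusted p = 2.51e-14). Within each of these genes the 3 siMESH1-7002 libraries lay close together and far below siNT. The mitotic kinase CDK1 (log2 fold change -2.08), its cyclin CCNB1 (-2.04), the anaphase activator CDC20 (-2.15), the topoisomerase TOP2A (-2.03) and the transcription factor FOXM1, which activates many of them (-1.54), fell as well. The kinesins KIF14 (-2.83) and KIF2C (-2.68), the checkpoint kinase BUB1B (-2.74) and the spindle protein HMMR (-2.69) were among the 12 genes that fell furthest at 5 CPM or more. The homologous recombination and Fanconi list, whose genes are also expressed mostly in S and G2, had 27 of 35 members called lower and none higher. The share lower was 77.1%, against 26.7% of all genes. The helicase BLM was its lowest member, with 3.50, 3.82 and 4.58 CPM with siNT and 0.451, 0.709 and 0.726 CPM with siMESH1-7002 (log2 fold change -2.64, SE 0.2, adjusted p = 1.05e-08). With each library left out in turn, 79 mitotic, 42 replication and 27 to 30 recombination genes were called lower.

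**Figure D2:**
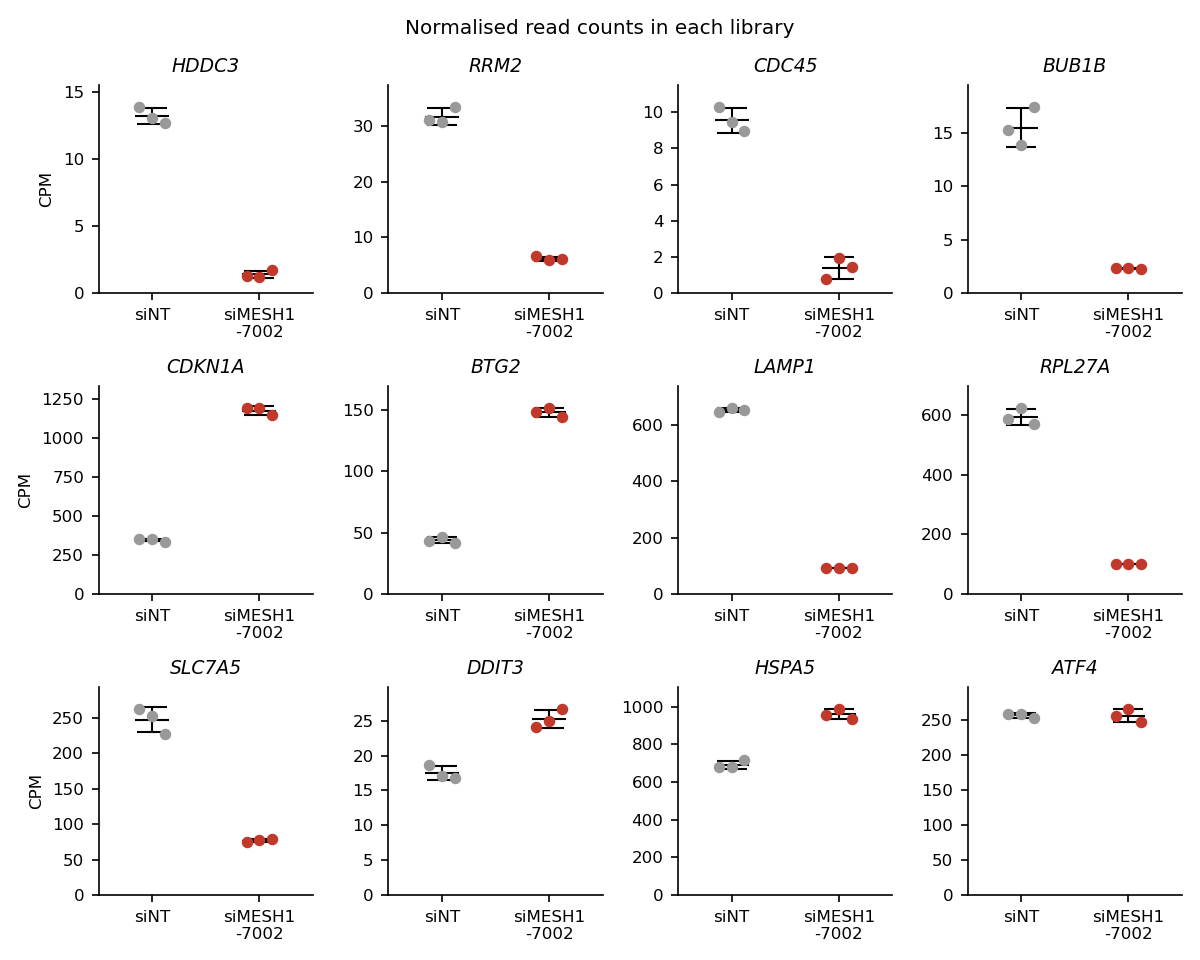
Level in CPM (linear axes from 0, a panel per gene) of 12 genes in each of the 3 siNT and 3 siMESH1-7002 libraries, with points for libraries and the mean ± SD (n = 3). HDDC3, RRM2, CDC45, BUB1B, LAMP1, RPL27A and SLC7A5 are lower and CDKN1A, BTG2, DDIT3 and HSPA5 higher in all 3 siMESH1-7002 libraries, while the groups overlap for ATF4.

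Promoters of the genes that fell carried the known elements of these programmes more often than promoters at large. Different classes of short element are described in textbooks for cell cycle promoters, sites for E2F in genes of G1/S and the CHR, often beside a CCAAT box, in genes of G2/M. RefSeq promoters (GRCh38.p14, from 250 bases before to 50 after the start site) were matched by symbol for 10577 of the genes tested. E2F words (TTTCCCGC, TTTCGCGC, TTTGCCGC or TTTGGCGC, either strand) were in 5.29% of all these promoters, in 13.3% of those of genes that fell 2-fold and in 4.24% of those that rose 2-fold. The CHR words (TTTGAA or TTCGAA, either strand) were in 11%, 26.1% and 11.9%, and CCAAT in 36.5%, 46.7% and 39.8%. Within the lists the 2 elements split by phase. Of 36 replication promoters 47.2% held an E2F word and 5.56% a CHR word, and of 67 mitotic promoters 7.46% held an E2F word and 73.1% a CHR word. The element of ATF4 targets (TGATGCAA or TGATGNAAT, either strand) was in 0.711% of promoters of genes that fell 2-fold, 0.847% of those that rose and 0.794% of all. These words were rare even in the list of ATF4 targets and stress response genes, at 1 of 32 promoters (3.12%). Of 16 promoters of cytosolic aminoacyl-tRNA synthetases 6 held them (37.5%). The shares among genes that fell or rose thus say little about ATF4 targets. A match of letters is not a bound site.

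Stretches of 30 bases from 6 of these promoters show the elements, in capitals, on the strand of the gene. In E2F1 the element reads on the opposite strand. The windows lie at chr20:33686400-33686429 (E2F1, minus strand, element 33 bases before the start), chr1:23531257-23531286 (E2F2, minus, 42 bases before), chr2:135876577-135876606 (MCM6, minus, 152 bases before), chr1:43358904-43358933 (CDC20, plus, 65 bases before), chr10:60778305-60778334 (CDK1, plus, 161 bases before) and chr16:23678848-23678877 (PLK1, plus, 29 bases before).
E2F1: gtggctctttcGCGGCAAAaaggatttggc
E2F2: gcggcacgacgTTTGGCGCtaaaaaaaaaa
MCM6: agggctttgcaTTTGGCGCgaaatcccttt
CDC20: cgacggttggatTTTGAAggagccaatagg
CDK1: gagtataataaaTTTGAActgtgccaatgc
PLK1: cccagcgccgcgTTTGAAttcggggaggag

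Genes that hold the cycle in check rose in the same libraries. CDKN1A, the p53-induced inhibitor p21 of the cyclin-dependent kinases, had 350.2, 351 and 336 CPM with siNT and 1192, 1188 and 1144 CPM with siMESH1-7002 (log2 fold change 1.76, SE 0.0413, adjusted p = 1.63e-14). BTG2, an antiproliferative p53 target, had 43.3, 46.4 and 41.6 CPM with siNT and 148, 152 and 144 CPM with siMESH1-7002 (log2 fold change 1.76, SE 0.0537, adjusted p = 1.99e-13). The lowest siMESH1-7002 library of either gene was over 3 times its highest siNT library. Of 34 p53 targets tested, 30 were called higher, 5 of them by at least 2-fold, and 2 lower. The shares were 88.2% higher and 5.88% lower, against 26.6% and 26.7% of all genes. The median log2 fold change was 0.57 against 0.01 over all genes. The summed level went from 3438 ± 17.1 CPM with siNT to 5527 ± 38.9 CPM with siMESH1-7002 (SD, n = 3 each). The members include FDXR, an electron donor of mitochondrial P450 enzymes (log2 fold change 0.79, SE 0.0532, adjusted p = 2.34e-09), MDM2, the ligase that degrades p53 (log2 fold change 0.37, SE 0.0562, adjusted p = 3.12e-05), and FBXO22, an F-box protein, which was the lowest (log2 fold change -0.33, SE 0.0635, adjusted p = 0.000336). FAS, a death receptor, was not called (log2 fold change -0.10, adjusted p = 0.255). TP53INP1, an autophagy and death effector named after its values were seen, reached a log2 fold change of 1.38.

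The CDK inhibitor and quiescence list had 18 of 27 members called higher (66.7%, against 26.6% of all genes) and 2 lower (7.41% against 26.7%). CDKN1B, the inhibitor p27, rose by little (log2 fold change 0.18, SE 0.0496, adjusted p = 0.00601), as did the pocket protein RBL2 (log2 fold change 0.29, SE 0.0516, adjusted p = 0.000169) and the cyclin CCNG2, which marks resting cells (log2 fold change 0.38, SE 0.0598, adjusted p = 4.36e-05). TXNIP, an arrestin that restrains glucose uptake and thioredoxin, had 246, 244 and 278 CPM with siNT and 522, 496 and 514 CPM with siMESH1-7002 (log2 fold change 1.00, SE 0.0504, adjusted p = 5.49e-11). CDKN2C had a log2 fold change of -0.10 (adjusted p = 0.0654). GADD45B was the lowest called member (log2 fold change -0.48, SE 0.0612, adjusted p = 5.32e-06).

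Histone genes went in both directions. Of 52 histone genes listed 24 passed the filter on low counts, 8 higher (33.3%) and 6 lower (25.0%). Among all genes 26.6% were called higher and 26.7% lower, so the split is close to that of all genes. HIST1H2AC had 3.12, 3.58 and 3.23 CPM with siNT and 11.1, 11.5 and 12.5 CPM with siMESH1-7002 (log2 fold change 1.83, SE 0.104, adjusted p = 2.55e-10), HIST1H2BK a log2 fold change of 1.23, HIST1H2BD 1.16 and the linker histone HIST1H1C 0.94. Lower were the variant H2AFX, which marks DNA breaks when phosphorylated, with 66.8, 65.8 and 57.9 CPM with siNT and 33.3, 29.2 and 31.3 CPM with siMESH1-7002 (log2 fold change -1.02, SE 0.0678, adjusted p = 1.84e-09), H2AFZ with a log2 fold change of -0.54 and the centromeric CENPA with -2.47. The linker histone variant H1F0 had a log2 fold change of -0.19 and was not called. Histone genes are near copies of each other, and reads without a unique alignment (23.57% to 27.11% of each library) were not counted. Their levels are therefore uncertain. The paper names a stranded mRNA kit for its libraries, and how fully that kit captures histone transcripts was not tested.

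The ATF4 pathway gave no single direction. ATF4 itself overlapped between the groups, with 259, 258 and 253 CPM with siNT and 256, 266 and 247 CPM with siMESH1-7002 (SE of the log2 fold change 0.0431, adjusted p = 0.954). In the list of ATF4 targets and stress response genes, of 39 members tested, 12 were called higher, 18 lower and 9 neither. That is 30.8% higher and 46.2% lower, against 26.6% and 26.7% of all genes. The median log2 fold change of the list was -0.04. The members called higher include the transcription factors that act with ATF4. DDIT3 (CHOP), a death-linked factor of stressed cells, had 18.7, 17 and 16.8 CPM with siNT and 24.1, 25.0 and 26.7 CPM with siMESH1-7002 (log2 fold change 0.53, SE 0.0718, adjusted p = 1.09e-05). ATF3, a feedback repressor, had 8.07, 9.20 and 9.86 CPM with siNT and 12.9, 12.9 and 12.3 CPM with siMESH1-7002 (log2 fold change 0.49, SE 0.0892, adjusted p = 0.000184), and CEBPB, the highest member, had 47.4, 45.1 and 40.6 CPM with siNT and 72.2, 67.2 and 71.8 CPM with siMESH1-7002 (log2 fold change 0.67, SE 0.0617, adjusted p = 1.23e-07). CTH, which makes cysteine from cystathionine, had 6.12, 6.47 and 6.10 CPM with siNT and 8.53, 7.23 and 9.24 CPM with siMESH1-7002 (log2 fold change 0.42, SE 0.106, adjusted p = 0.00304). In all 4 the groups stood apart, with changes below 2-fold.

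Several amino acid genes of the same pathway were lower. SLC7A5, a carrier of large neutral amino acids, had 263, 252 and 228 CPM with siNT and 75.1, 77.1 and 78.4 CPM with siMESH1-7002 (log2 fold change -1.69, SE 0.0546, adjusted p = 3.49e-13). The asparagine synthetase ASNS had 18.8, 18.6 and 21.5 CPM with siNT and 10.6, 10.5 and 12.8 CPM with siMESH1-7002 (log2 fold change -0.79, SE 0.0906, adjusted p = 1.59e-06). TRIB3, a pseudokinase that restrains the response, stood at 338, 330.0 and 325 CPM with siNT and 227, 207 and 211 CPM with siMESH1-7002 (log2 fold change -0.62, SE 0.0453, adjusted p = 6.07e-09). The serine enzyme PSAT1 (log2 fold change -0.49), the mitochondrial folate enzyme MTHFD2 (-0.39), the glutathione-degrading CHAC1 (-0.61) and the eIF2α kinase EIF2AK3, known as PERK (-0.45), were called lower too. Cytosolic aminoacyl-tRNA synthetases, many of them known ATF4 targets, had 13 of 19 members lower (68.4%, against 26.7% of all genes) and 1 higher (5.26% against 26.6%). They ran from MARS (log2 fold change -0.70, SE 0.0497, adjusted p = 4.47e-09) to RARS (log2 fold change 0.22, SE 0.0552, adjusted p = 0.00301). In the GC-corrected fit, where the median of all genes was 0.07, ATF4 was called higher (0.10, adjusted p = 0.0107).

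Protein folding genes of the endoplasmic reticulum were called higher more often than lower, by small steps. In the list of chaperones and of ATF6 and XBP1s targets, of 45 members tested, 24 were called higher, 7 lower and 14 neither. That is 53.3% higher and 15.6% lower, against 26.6% and 26.7% of all genes. The median log2 fold change of the list was 0.16. The chaperone HSPA5 (BiP) had 679, 682 and 717 CPM with siNT and 957, 989 and 936 CPM with siMESH1-7002 (log2 fold change 0.47, SE 0.0412, adjusted p = 5.91e-08), XBP1 total mRNA had 82.8, 85.1 and 84.1 CPM with siNT and 112, 113 and 106 CPM with siMESH1-7002 (log2 fold change 0.39, SE 0.0483, adjusted p = 3.83e-06) and the co-chaperone DNAJB9 (ERdj4) had 21.8, 20.5 and 24.3 CPM with siNT and 32.7, 32.1 and 30.0 CPM with siMESH1-7002 (log2 fold change 0.51, SE 0.0718, adjusted p = 1.68e-05). All 3 lay above siNT in each library. EDEM1, which sends misfolded glycoproteins to degradation, was the highest (log2 fold change 0.77, SE 0.0534, adjusted p = 3.08e-09). SEL1L, the scaffold of the ligase that degrades them, was the lowest, with 108, 108 and 127 CPM with siNT and 50.1, 50.2 and 47.9 CPM with siMESH1-7002 (log2 fold change -1.21, SE 0.0643, adjusted p = 1.04e-10). HERPUD1, of the same machinery, had 94.9, 99.6 and 101 CPM with siNT and 107, 108 and 104 CPM with siMESH1-7002 (log2 fold change 0.11, SE 0.0477, adjusted p = 0.057), with groups that did not overlap, and it was called when siNT replicate 3 was left out and with the GC correction. The sensors ATF6 (log2 fold change 0.11) and ERN1 (-0.04) were not called. Counts per gene do not separate spliced from unspliced XBP1.

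Genes of redox control and iron shifted in part. In the list of NRF2 targets, of 32 members tested, 16 were called higher, 6 lower and 10 neither, with a median log2 fold change of 0.13, against 26.6% higher and 26.7% lower among all genes, and the summed level went from 8591 ± 208 CPM with siNT to 11130.2 ± 263 CPM with siMESH1-7002 (SD, n = 3 each). NFE2L2, the gene of NRF2, had 183, 187 and 206 CPM with siNT and 243, 241 and 241 CPM with siMESH1-7002 (log2 fold change 0.33, SE 0.0481, adjusted p = 2.24e-05), and its targets NQO1, a quinone reductase (log2 fold change 0.34), and TXNRD1, thioredoxin reductase (0.27), rose by similar amounts. The iron store FTH1 had 2841, 2926 and 2656 CPM with siNT and 4091, 3856 and 3866 CPM with siMESH1-7002 (log2 fold change 0.49, SE 0.0433, adjusted p = 7.27e-08), and its light chain partner FTL, named after its values were seen, reached 0.66. HMOX1, which frees iron from haem, went down, with 146, 144 and 137 CPM with siNT and 100.5, 92.6 and 93.4 CPM with siMESH1-7002 (log2 fold change -0.57, SE 0.0498, adjusted p = 5.5e-08), and GCLM, a subunit of glutathione synthesis, was not called (-0.08, adjusted p = 0.23). AKR1C1 was the highest of the list (log2 fold change 1.23, SE 0.151, adjusted p = 3.67e-06) at 1.42 to 2.05 CPM with siNT, and TRIM16L the lowest (log2 fold change -1.24, SE 0.0568, adjusted p = 1.58e-11). FTH1, AKR1C1 and TRIM16L have close copies, so their values are uncertain.

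Ferroptosis is death by iron-dependent lipid peroxidation, and its genes split with 14 of 41 called higher (34.1%, against 26.6% of all genes) and 16 lower (39.0% against 26.7%). On the side that limits peroxidation, the peroxidase GPX4 had 286, 286 and 263 CPM with siNT and 328, 314 and 316 CPM with siMESH1-7002 (log2 fold change 0.20, SE 0.0455, adjusted p = 0.00142). The iron exporter SLC40A1 (ferroportin) had 5.26, 6.67 and 7.02 CPM with siNT and 13.3, 12.5 and 12.6 CPM with siMESH1-7002 (log2 fold change 1.03, SE 0.103, adjusted p = 3.15e-07). The cystine carrier subunit SLC7A11 had 5.39, 5.91 and 6.99 CPM with siNT and 7.84, 6.89 and 7.39 CPM with siMESH1-7002 (log2 fold change 0.28, SE 0.111, adjusted p = 0.0448), overlapping groups, and a call that was lost with DESeq2 and without siNT replicate 1 or 2 or siMESH1-7002 replicate 1 or 3. AIFM2 (FSP1), which reduces coenzyme Q, was lower (log2 fold change -0.21, SE 0.0607, adjusted p = 0.0072). On the side that permits it, ACSL4, which activates polyunsaturated fatty acids, had 128, 135 and 157 CPM with siNT and 201, 203 and 197 CPM with siMESH1-7002 (log2 fold change 0.52, SE 0.0612, adjusted p = 2.22e-06), LPCAT3 was slightly lower (-0.18), and TFRC, the transferrin receptor, was not called (0.04). The iron sensor ACO1 was lowest (log2 fold change -0.73, SE 0.0538, adjusted p = 7.15e-09).

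Enzymes that make or use NADP(H) stood at 7 higher, 7 lower and 13 neither of 27, with 13 higher after the GC correction. The 25.9% in either direction was close to the share of all genes (26.6% and 26.7%). NADK, which makes NADP from NAD, had 38.7, 39.3 and 34.1 CPM with siNT and 39.4, 41.5 and 40.1 CPM with siMESH1-7002 (log2 fold change 0.11, SE 0.064, adjusted p = 0.16), and the 95% interval of its change runs past no change. IDH1, a cytosolic source of NADPH, had 135, 142 and 148 CPM with siNT and 86.4, 90.3 and 91.4 CPM with siMESH1-7002 (log2 fold change -0.66, SE 0.0498, adjusted p = 8.99e-09), malic enzyme ME1 was -0.29 and NAMPT, the entry to NAD salvage, was 0.51 (log2 fold changes). Of 30 fatty acid and lipid genes, 16 were called lower (53.3%) and 4 higher (13.3%): ACLY, the source of cytosolic acetyl-CoA, had 737, 729 and 714 CPM with siNT and 595, 593 and 594 CPM with siMESH1-7002 (log2 fold change -0.29, SE 0.0383, adjusted p = 7.38e-06), the carboxylase ACACA fell by more (log2 fold change -0.73, SE 0.0523, adjusted p = 4.57e-09), and FASN (-0.44), SCD (-0.40) and SREBF1 (-0.26) also fell. Of 26 cholesterol genes 11 fell (42.3%) and 7 rose (26.9%, close to the 26.6% of all genes). HMGCS1, an early synthase of the pathway (0.38), the sterol sensor INSIG1 (0.46) and the regulator SREBF2 (0.40) rose.

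**Figure D3:**
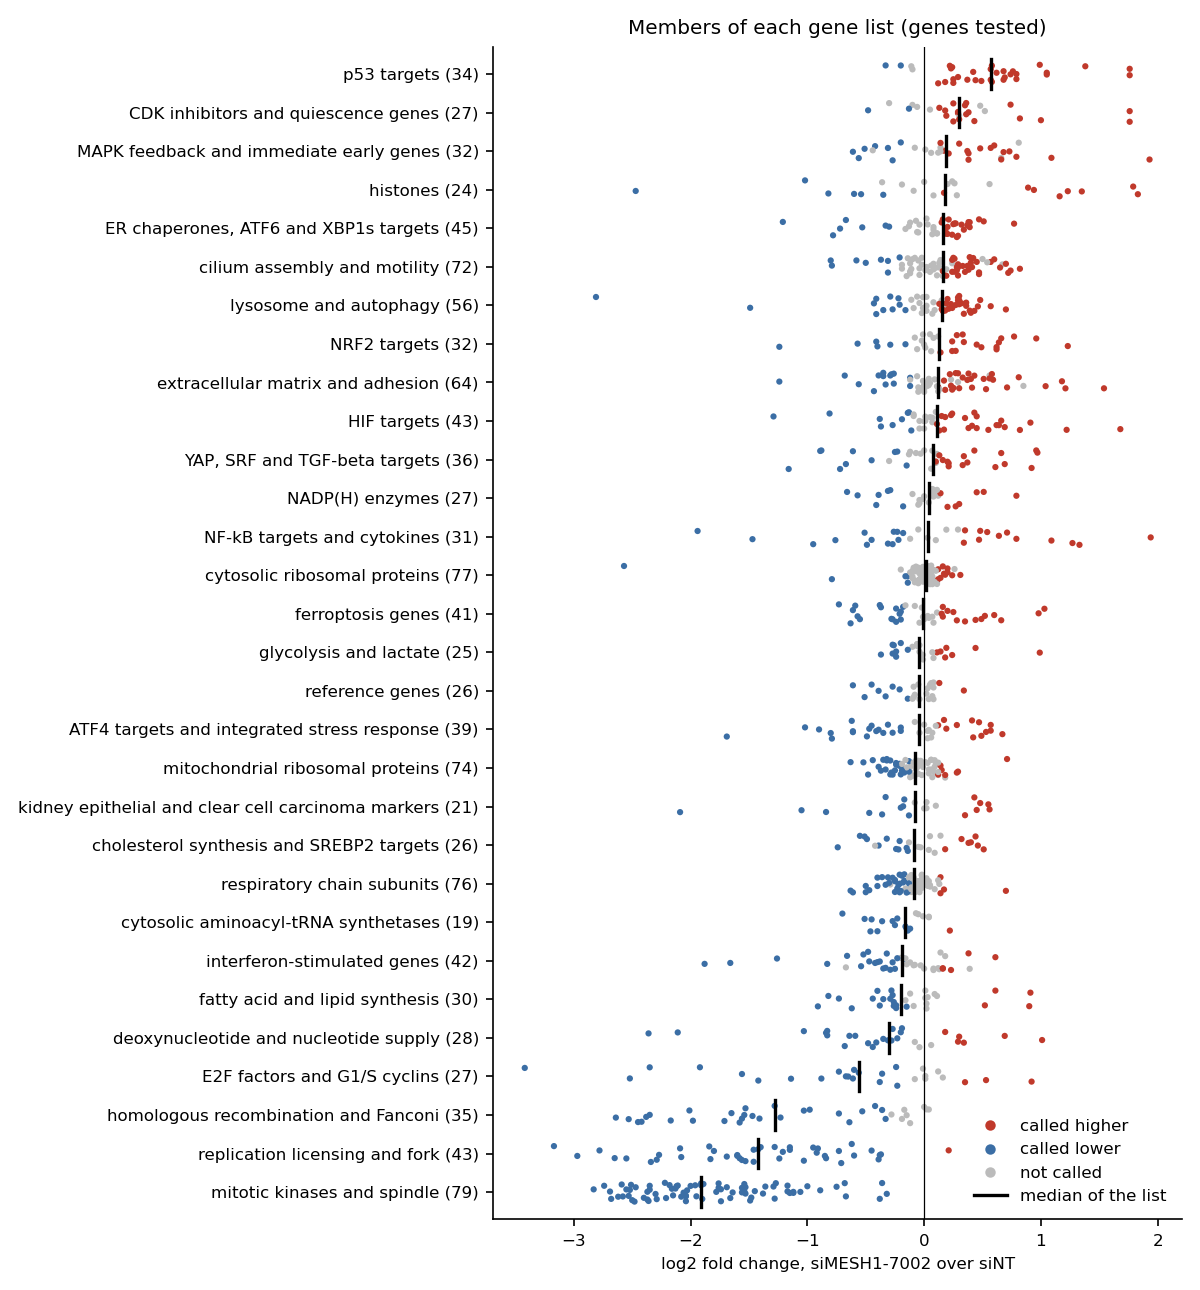
Log2 fold change (siMESH1-7002 over siNT) of each tested member of 30 gene lists, a row per list in the order of its median (black bar), with the number of members tested in brackets and colours for called higher, lower or neither. The mitotic, replication and recombination rows lie at medians of -1.91, -1.42 and -1.28, the p53 row at 0.57, and the rows between hold members on both sides of 0.

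HIF targets, which VHL restrains in normal kidney, had 22 of 43 members called higher (51.2%, against 26.6% of all genes) and 9 lower (20.9% against 26.7%). VEGFA, the angiogenic growth factor, had 566, 509 and 443 CPM with siNT and 622, 682 and 712 CPM with siMESH1-7002 (log2 fold change 0.41, SE 0.0694, adjusted p = 0.000103), and its 3 siNT values spread more than those of siMESH1-7002. EPAS1, the gene of HIF-2α, had 290.0, 278 and 285 CPM with siNT and 422, 411 and 414 CPM with siMESH1-7002 (log2 fold change 0.55, SE 0.0403, adjusted p = 7.3e-09), and HIF1A rose by 0.23. The lipase inhibitor ANGPTL4 was the highest (log2 fold change 1.68, SE 0.184, adjusted p = 9.54e-07) at 1.38 to 2.41 CPM with siNT, and the lipid droplet coat PLIN2 had 515, 513 and 501 CPM with siNT and 971, 976 and 929 CPM with siMESH1-7002 (log2 fold change 0.91, SE 0.0401, adjusted p = 9.14e-12). EGLN3, a HIF hydroxylase that HIF induces, had 168, 168 and 167 CPM with siNT and 70.0, 68.6 and 67.9 CPM with siMESH1-7002 (log2 fold change -1.29, SE 0.0457, adjusted p = 7.32e-13), and the glucose carrier SLC2A1 was -0.27. CA9, a carbonic anhydrase and marker of clear cell carcinoma, was not called (0.10, adjusted p = 0.077).

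Ribosomal proteins of the cytosol changed little as a group, with 10 of 77 higher, 5 lower and 62 neither, and a summed level of 35444 ± 1473 CPM with siNT and 35169 ± 728 CPM with siMESH1-7002 (SD, n = 3 each). Without siNT replicate 3, 23 were called lower, and with the GC correction 38 were called higher and 2 lower, so the direction of the small changes in this family depended on the setting. RPL27A stood apart, with 588, 626 and 572 CPM with siNT and 99.6, 99.8 and 102 CPM with siMESH1-7002 (log2 fold change -2.57, SE 0.0466, adjusted p = 3.98e-16). RPL15 was the highest (log2 fold change 0.31, SE 0.0466, adjusted p = 2.81e-05). These genes have many processed copies in the genome, and reads without a unique alignment were not counted. Mitochondrial ribosomal proteins had 27 of 74 lower (36.5%, against 26.7% of all genes) and 7 higher (9.46% against 26.6%). Respiratory chain subunits had 28 of 76 lower (36.8%) and 4 higher (5.26%), from COX6A1 (log2 fold change -0.63, SE 0.0539, adjusted p = 4.67e-08) to NDUFA5 (log2 fold change 0.70, SE 0.0779, adjusted p = 1.05e-06). In the GC-corrected fit 17 and 10 of these were called higher.

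RPL27A was one of several genes outside the cell cycle that fell deeply and whose 3′UTR holds the 7 letters complementary to the seed. LAMP1, the major membrane protein of lysosomes, had 648, 662 and 656 CPM with siNT and 93.4, 94.0 and 93.3 CPM with siMESH1-7002 (log2 fold change -2.81, SE 0.0421, adjusted p = 3.64e-17), although 28 of the 56 lysosome and autophagy genes were called higher (50%, against 26.6% of all genes) and 11 lower (19.6% against 26.7%). The cathepsin CTSB (0.36) and the autophagy receptor SQSTM1 (0.36) rose. COPS4, a subunit of the COP9 signalosome, had 31.3, 31.9 and 34.0 CPM with siNT and 5.13, 5.24 and 4.82 CPM with siMESH1-7002 (log2 fold change -2.68, SE 0.0796, adjusted p = 1.44e-13). CYB5A, the electron carrier cytochrome b5, had 65.5, 63.0 and 61.4 CPM with siNT and 10.5, 9.53 and 9.01 CPM with siMESH1-7002 (log2 fold change -2.71, SE 0.0699, adjusted p = 2.94e-14). MAP1LC3B, the autophagosome protein LC3B, had 80.5, 82.6 and 90.2 CPM with siNT and 27.7, 31.5 and 31.1 CPM with siMESH1-7002 (log2 fold change -1.49, SE 0.0643, adjusted p = 7.68e-12). GINS1 of the replication fork held the letters too. So did ASNS, ACACA, ME1, TRIM16L, FBXO22 and IFIT1, whose smaller falls are given with their own lists. ATF6 and IL6, which were not called, also held a match. The windows of 21 bases that end 1 base after the match are on GRCh38. For each gene listed they come from the coding transcript with the longest 3′UTR. The match is in capitals, and the windows are to be read beside the HDDC3 target above. The bases counted as equal include the 7 of the match, which every window holds by choice, and the rest were not set against any expected number.
GINS1, chr20:25446129-25446149, plus strand, 11 of 21 bases equal to the HDDC3 target: agaagtataatttGCTAACTa
LAMP1, chr13:113322594-113322614, plus strand, 11 equal: cggtgttaattttGCTAACTg
LAMP1, chr13:113322615-113322635, plus strand, 11 equal: ggttaaatattttGCTAACTg
CYB5A, chr18:74253514-74253534, minus strand, 11 equal: aaaagaagccattGCTAACTa
COPS4, chr4:83075622-83075642, plus strand, 12 equal: ctctgtgtattaaGCTAACTc
RPL27A, chr11:8685821-8685841, plus strand, the first of 2 matches, 10 equal: agtttcattaaatGCTAACTa
MAP1LC3B, chr16:87404503-87404523, plus strand, 8 equal: gtctgtccacttgGCTAACTt

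Across all genes with a 3′UTR in the annotation, those with the seed match tended to be lower. Matches were counted in the longest 3′UTR of each gene. Of 807 genes with at least 1 match, 403 (49.9%) were called lower and 133 higher, with a median log2 fold change of -0.19, and 11.3% fell 2-fold. Of 11710 genes with no match, 26.4% were called lower and 3.65% fell 2-fold, with a median of 0.01. Genes with 1 match had a median of -0.18 and genes with 2 or more, 62 in number, of -0.32. Long 3′UTRs hold more matches by length alone, and in each class of length the genes with a match were lower: 63.8% against 30.8% were called lower under 1000 bases, 58.8% against 25.5% from 1000 to 2000, 53.4% against 23.1% from 2000 to 4000, and 41.1% against 19.4% from 4000 up. The difference stood outside the 5 cell cycle lists (49.6% against 25.3%) and after the GC correction (medians -0.14 and 0.08). The same genes in the siMESH1-CDS experiment, whose guide has another seed, had medians of 0.49 with a match and -0.13 without. Neither of these medians was corrected for GC content. Changes in that experiment followed it, with medians from 1.15 in the lowest GC class to -3.63 in the highest, so they cannot show the part of the seed. Of the 388 genes with a 3′UTR that fell 2-fold outside the cell cycle lists, 88 (22.7%) held a match. The part of seed pairing in any of these changes was not tested.

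**Figure D4:**
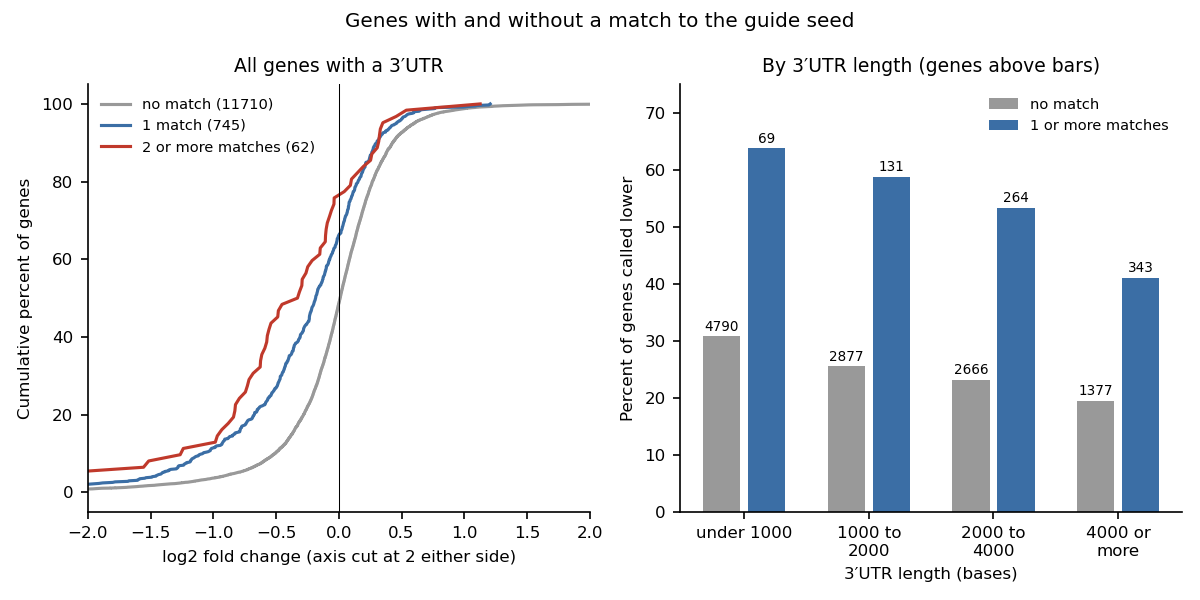
Left, cumulative percent of genes against log2 fold change (siMESH1-7002 over siNT) for genes with no match, 1 match, and 2 or more matches to the guide seed in the 3′UTR. Right, percent of genes called lower in 4 classes of 3′UTR length (bases), with and without a match and the number of genes above each bar, from 63.8% against 30.8% in the shortest class to 41.1% against 19.4% in the longest.

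Among genes at a mean of 5 CPM or more, those that rose furthest were of other kinds. SCG2, a secretory granule protein, had 9.80, 10.0 and 11.6 CPM with siNT and 60.4, 60.8 and 58.4 CPM with siMESH1-7002 (log2 fold change 2.52, SE 0.0709, adjusted p = 7.48e-14). IL1RAP, the shared co-receptor of the interleukin-1 family, had 11.5, 10.6 and 11.8 CPM with siNT and 44.1, 46.5 and 47.9 CPM with siMESH1-7002 (log2 fold change 2.03, SE 0.0694, adjusted p = 5.27e-13). EMP1, a membrane protein of epithelia, had 5.23, 5.06 and 5.07 CPM with siNT and 20.3, 22.1 and 20.5 CPM with siMESH1-7002 (log2 fold change 2.03, SE 0.0834, adjusted p = 4.13e-12). The transcription factor ETV1 (log2 fold change 1.93, SE 0.102, adjusted p = 9.43e-11), the lipid carrier ABCA12 (1.52), the sulfotransferase CHST2 (1.68), DENND5B (1.55), DESI2 (1.76) and the actin copy ACTBL2 (1.99), which may share reads with ACTB, complete the 12 with HIST1H2AC, CDKN1A and BTG2. None of the 12 held a seed match or was in a cell cycle list, while of the 12 that fell furthest 5 held a match and 7 were in such a list. The 5 include HDDC3, the intended target with its full 21-base match, and GINS1 is counted in both the 5 and the 7. EDN2, a vasoconstrictor peptide, was the remaining large fall outside division (log2 fold change -2.98, SE 0.101, adjusted p = 5.19e-13).

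Inflammatory signalling split between genes. Interferon-stimulated genes had 21 of 42 lower (50%, against 26.7% of all genes) and 5 higher (11.9% against 26.6%): OAS3, a sensor of double-stranded RNA, had 58.2, 67.0 and 59.5 CPM with siNT and 17.9, 15.8 and 16.3 CPM with siMESH1-7002 (log2 fold change -1.88, SE 0.0717, adjusted p = 1.63e-12), with IFIT1 (-0.38), ISG15 (-0.48) and MX1 (-0.83) also lower, while the DNA sensor IFI16 rose (log2 fold change 0.61, SE 0.0558, adjusted p = 9.63e-08) and the RNA sensor DDX58 was not called (-0.03). NF-κB targets and cytokines had 12 higher (38.7%) and 13 lower (41.9%) of 31. The chemokine CCL2 had 3.06, 3.98 and 3.33 CPM with siNT and 0.624, 1.08 and 0.957 CPM with siMESH1-7002 (log2 fold change -1.94, SE 0.197, adjusted p = 3.63e-07), and interleukin-1β, IL1B, had 1.04, 0.764 and 1.06 CPM with siNT and 3.43, 3.92 and 3.80 CPM with siMESH1-7002 (log2 fold change 1.94, SE 0.169, adjusted p = 5.92e-08). CXCL1 (1.09) and CXCL5 (1.33), named after their values were seen, were called higher, while IL6 and IL8 overlapped between the groups. CCL2, IL1B, IL6 and IL8 stayed below 4 CPM in every library and rest on fewer reads than most genes named here.

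Matrix and adhesion genes had 27 of 64 called higher (42.2%, against 26.6% of all genes) and 14 lower (21.9% against 26.7%). Fibronectin, FN1, had 466, 442 and 477 CPM with siNT and 973, 885 and 991 CPM with siMESH1-7002 (log2 fold change 1.04, SE 0.0485, adjusted p = 1.92e-11). The matrix protein SPARC was the highest (log2 fold change 1.54, SE 0.13, adjusted p = 4.11e-08) and COL1A1, the chain of type I collagen, had 13.4, 12.1 and 10.5 CPM with siNT and 28.3, 25.8 and 29.5 CPM with siMESH1-7002 (log2 fold change 1.21, SE 0.0875, adjusted p = 5.33e-09), both at low levels, while COL4A1 of basement membranes was not called (-0.05). COL1A1 is also in the fibroblast list, whose summed level over its 7 markers went from 12.9 ± 1.46 CPM to 28.9 ± 2.15 CPM, nearly all of it COL1A1, and the part of such cells was not tested. The integrin ITGB8, with 2 seed matches, was the lowest (log2 fold change -1.24, SE 0.0564, adjusted p = 1.46e-11). Among YAP, SRF and TGF-β targets, with 16 higher (44.4%) and 10 lower (27.8%) of 36, THBS1 had 1074, 1057 and 1044 CPM with siNT and 579.5, 574 and 571 CPM with siMESH1-7002 (log2 fold change -0.88, SE 0.0383, adjusted p = 8.1e-12), CYR61 fell (-0.61), CTGF was not called (0.10), and CRIM1 fell furthest (log2 fold change -1.16, SE 0.041, adjusted p = 7.18e-13) while ID2 rose furthest (log2 fold change 0.97, SE 0.0734, adjusted p = 9.82e-09). The MAPK feedback genes had 16 higher (50%) and 7 lower (21.9%) of 32, with DUSP6 at 0.536, 0.844 and 0.745 CPM with siNT and 1.46, 1.28 and 1.72 CPM with siMESH1-7002 (log2 fold change 1.09, SE 0.232, adjusted p = 0.00082), FOSL1 lower (-0.56) and EGR1 not called (0.01).

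The last comparison asked where siMESH1-7002 differed from siMESH1-CDS. The change with each siRNA was taken over the siNT of its own experiment, no library is shared by the 2 changes, and the difference was tested in 1 fit of all 12 libraries. The 2 changes differed in 9866 of 14154 genes (69.7%), so a difference is the rule and not the exception. In the siMESH1-CDS experiment the change followed transcript GC content, with a median from 1.15 in the class of lowest GC to -3.63 in the highest, against 0.12 to -0.10 for siMESH1-7002, and its libraries varied more (coefficient of variation 0.299). Each difference is therefore followed by its value after the GC correction.

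HDDC3 fell with both, by -3.25 and -5.56 (log2), a difference of 2.47 (SE 0.588, adjusted p = 0.0037) that became 0.18 (adjusted p = 0.736) after the correction. The cell cycle genes did not differ in 1 direction. Of 43 replication genes 27 had a difference called above 0, that is a smaller fall or a larger rise with siMESH1-7002, and 1 below 0, and after the correction the counts were 35 and 2. Of 79 mitotic genes 26 were above 0 and 36 below, or 20 and 25 corrected. Over all 14154 genes tested 5626 were above 0 and 4240 below. With the correction these counts were 3780 and 4561. RRM2 fell by -2.36 against -4.08, a difference of 1.87 (SE 0.118, adjusted p = 1.16e-06), and CDK2 by -0.56 against -1.80, a difference of 1.39 (SE 0.199, adjusted p = 0.00017). Both held after the correction, at 2.24 (adjusted p = 3.59e-08) and 0.80 (adjusted p = 9.37e-05). E2F1 differed by 4.42 (SE 0.664, adjusted p = 0.000223), or 1.21 (adjusted p = 0.0143) corrected. In 4 mitotic genes named after their values were seen the fall was deeper with siMESH1-7002. BUB1B fell by -2.74 against -0.63, a difference of -1.96 (SE 0.148, adjusted p = 3.4e-06), or -1.43 (adjusted p = 1.17e-06) corrected, and CCNB1 differed by -1.10 (SE 0.112, adjusted p = 2.02e-05), or -0.69 (adjusted p = 6.34e-05) corrected. TOP2A differed by -1.09 (SE 0.191, adjusted p = 0.000592), or -0.34 (adjusted p = 0.000713) corrected, and CDK1 by -0.97 (SE 0.243, adjusted p = 0.00486), or -0.12 (adjusted p = 0.214) corrected, which is no longer past the threshold. Of the stress genes, CTH rose less with siMESH1-7002, by 0.42 against 2.08, a difference of -1.51 (SE 0.142, adjusted p = 1.22e-05), or -1.02 (adjusted p = 0.000143) corrected. HERPUD1 had a difference of -0.94 (SE 0.234, adjusted p = 0.00489), or -0.94 (adjusted p = 0.00125) corrected. DDIT3 rose by 0.53 against -0.56, a difference of 1.24 (SE 0.46, adjusted p = 0.0333), or 0.93 (adjusted p = 0.0322) corrected. ATF3 rose by 0.49 against 1.22, a difference of -0.58 (SE 0.231, adjusted p = 0.0449), or -0.99 (adjusted p = 0.000127) corrected, and the calls of both were lost when most single libraries were left out. For XBP1 the difference was 0.11 (SE 0.095, adjusted p = 0.311), or -0.06 (adjusted p = 0.555) corrected. DNAJB9 was not past the threshold at -0.47 (SE 0.205, adjusted p = 0.0611) and was past it in the other direction after the correction, at 0.23 (adjusted p = 0.0461). ATF4 was not called at 1.06 (SE 0.793, adjusted p = 0.254), nor at -0.27 (adjusted p = 0.637) corrected.

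Other genes differed in size or direction between the 2 siRNAs. VEGFA was 0.41 higher with siMESH1-7002 and -2.38 with siMESH1-CDS, a difference of 2.94 (SE 0.255, adjusted p = 7.35e-06) that became 0.65 (adjusted p = 0.0698) after the correction. ACLY fell by -0.29 against -3.57, a difference of 3.42 (SE 0.169, adjusted p = 3.81e-07), or 2.07 (adjusted p = 7.9e-06) corrected. NADK differed by 2.43 (SE 0.276, adjusted p = 3.82e-05), which reversed to -0.23 (adjusted p = 0.495). CDKN1A, 1.76 higher with siMESH1-7002 and -0.06 with siMESH1-CDS, differed by 1.97 (SE 0.52, adjusted p = 0.00658), which also reversed, to -0.71 (adjusted p = 0.000259), so no order between the siRNAs can be given for these 2 genes.

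Of the genes with a seed match, those followed here had been named for their deep falls with siMESH1-7002, which favours a difference below 0. They do not stand for all 807 genes with a match, of which 133 were called higher with siMESH1-7002. LAMP1 was 0.12 with siMESH1-CDS, a difference of -2.77 (SE 0.194, adjusted p = 2.2e-06), or -4.39 (adjusted p = 9.32e-08) corrected. COPS4 was 0.92, a difference of -3.44 (SE 0.146, adjusted p = 2.48e-07), or -2.87 (adjusted p = 2.4e-09) corrected, and RPL27A was -0.53, a difference of -1.90 (SE 0.608, adjusted p = 0.0174), or -2.48 (adjusted p = 0.000514) corrected. GINS1 fell with both, by -2.97 and -2.26, a difference of -0.56 (SE 0.118, adjusted p = 0.00185), and CYB5A differed by -1.51 (SE 0.431, adjusted p = 0.01), and after the correction these were -0.23 (adjusted p = 0.0523) and -1.09 (adjusted p = 0.0755). Among the largest rises, SCG2 rose more with siMESH1-CDS (5.69), a difference of -3.02 (SE 0.127, adjusted p = 2.48e-07), or -2.50 (adjusted p = 3.59e-08) corrected. EMP1, which was -0.41 with siMESH1-CDS, differed by 2.60 (SE 0.275, adjusted p = 2.48e-05), or 2.60 (adjusted p = 1.23e-05) corrected. IL1RAP, at -0.13, differed by 2.32 (SE 0.16, adjusted p = 2.03e-06), or 3.03 (adjusted p = 3.75e-08) corrected.

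**Figure D5:**
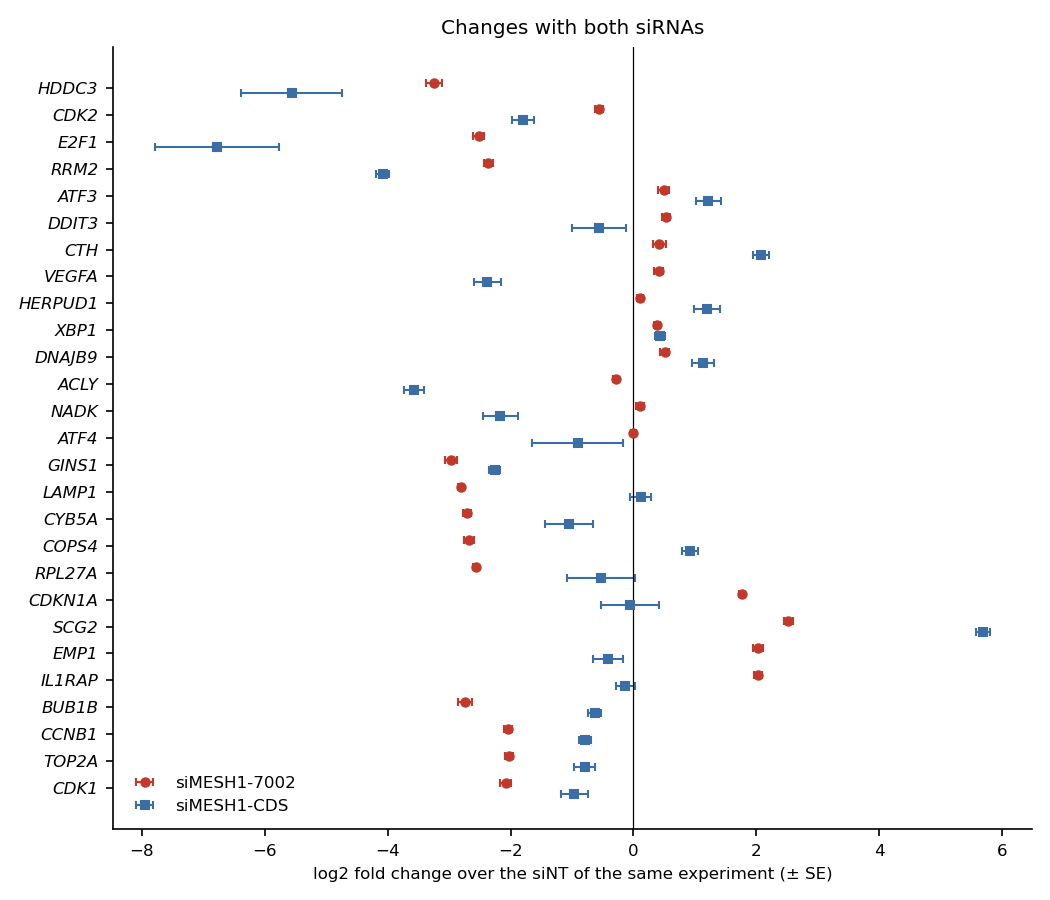
Log2 fold change over the siNT of the same experiment for 27 genes with siMESH1-7002 (circles) and siMESH1-CDS (squares), with bars for ± SE of each edgeR fit. HDDC3, E2F1 and RRM2 lie left of 0 for both, LAMP1 and COPS4 lie far left for siMESH1-7002 only (-2.81 against 0.12 and -2.68 against 0.92), and BUB1B lies further left for siMESH1-7002 (-2.74 against -0.63).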

How the data were processed

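RNA-seq libraries of single-end reads of 50 bases were aligned to hg19 and counted per gene by the authors with the tools that the submitters' processing notes name, FastQC, HISAT2, HTSeq and DESeq2. The annotation of the counts is not given in the sources used here. The deposited counts are whole numbers of reads per gene, not normalized. Tables of DESeq2 results that the authors deposited hold averaged normalized counts with log2 fold changes, their SE, a test statistic and p-values, and no value of them was used. Rows that name no gene (38.94% to 42.26% of each library, with 10.02% to 12.23% outside genes) were left out.

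From counts of 23710 genes, edgeR (version 4.0.16, R version 4.3.3) was run with filterByExpr, TMM, glmQLFit and glmQLFTest over the 6 libraries, and over all 12 for the difference between siRNAs. Benjamini-Hochberg adjustment covered every gene tested, and genes were called under 0.05. A gene at 1 CPM rests on 25 to 32 reads. The script was tested on simulated counts. Alternatives were DESeq2 1.42.0, library size scaling, other filters, glmTreat at a log2 change of 0.5, a lowess correction for GC content, a replicate block, all 12 libraries in 1 fit and leaving out each library.

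Positions, 3′UTRs and GC content come from GENCODE release 29 (GRCh38), matched by 21257 names and 1127 older symbols, and promoters from RefSeq (GRCh38.p14). No coordinate of hg19 was used. GC content was known for 96.9% of the genes tested. The members and the gene lists, written by hand, were chosen with earlier results of these data known. Genes were named where the study names them, where they were marked in a list, where they led a list (mean of at least 1 CPM), or as the 12 largest rises and falls that were called without overlap (mean of at least 5 CPM). Results for some single genes are left out.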

Additional observations from a re-analysis of the deposited data

Results flagged for a closer look

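Differences between the 2 siRNAs flagged these genes, each by the test of the difference itself (the change with siMESH1-7002 minus that with siMESH1-CDS, log2, edgeR, adjusted p under 0.05). The difference was above 0 for HDDC3 (2.47), CDK2 (1.39), E2F1 (4.42), RRM2 (1.87), DDIT3 (1.24), VEGFA (2.94), ACLY (3.42), NADK (2.43), CDKN1A (1.97), EMP1 (2.60) and IL1RAP (2.32). It was below 0 for ATF3 (-0.58), CTH (-1.51), HERPUD1 (-0.94), GINS1 (-0.56), LAMP1 (-2.77), CYB5A (-1.51), COPS4 (-3.44), RPL27A (-1.90), SCG2 (-3.02) and the mitotic genes BUB1B (-1.96), CCNB1 (-1.10), TOP2A (-1.09) and CDK1 (-0.97). After the GC correction NADK (-0.23 (adjusted p = 0.495)) and CDKN1A (-0.71 (adjusted p = 0.000259)) changed sign. The differences of HDDC3 (0.18 (adjusted p = 0.736)), VEGFA (0.65 (adjusted p = 0.0698)), GINS1 (-0.23 (adjusted p = 0.0523)), CYB5A (-1.09 (adjusted p = 0.0755)) and CDK1 (-0.12 (adjusted p = 0.214)) were then no longer past the threshold. Those of DDIT3 and ATF3 lost the call when most single libraries were left out. Since 69.7% of all genes tested differed, a difference here does not set these genes apart from the rest. Groups of 3 libraries are too small for a test of single outlying libraries.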

How the results depend on the processing

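HDDC3 fell in every alternative run (log2 fold change -3.44 to -3.13, and -3.44 to -3.15 when single libraries were left out). The count of genes called, 7235 in the main fit (3613 and 3622), moved most in 2 alternatives. All 12 libraries in 1 fit gave 2582 (1138 higher, 1444 lower). The fitted coefficient of variation was then 0.196, against 0.049 over the 6 libraries, and its part in the count was not tested. The test against a log2 fold change of 0.5, which by design asks for changes beyond that size, gave 1230 (387 higher, 843 lower). Leaving out single libraries gave 6264 to 8372 genes (3072 to 4149 higher, 3192 to 4223 lower), the highest without siNT replicate 3, and 9103 to 11113 for the difference between siRNAs (5066 to 6138 higher, 3807 to 4975 lower). DESeq2 gave 6629 and the GC correction 8323. With the replicate number as a block 6972 genes were called, and 9385 for the difference. Deviations of same-numbered libraries correlated at -0.102, 0.031 and -0.106, and those of other pairs at -0.112 to 0.195. No shared effect of the number was seen, but the labels do not say whether the numbers pair the samples. Under the GC correction 4 values reversed: ATF4 (0.10), the differences for DNAJB9 (0.23), NADK (-0.23) and CDKN1A (-0.71), and that correction moved 5626 higher and 4240 lower differences to 3780 and 4561. Without siNT replicate 3 the counts called higher rose to 12 of the mitochondrial ribosomal proteins, 8 of the interferon-stimulated genes and 7 of the reference genes (from 7, 5 and 2), and 4 CDK inhibitor genes were called lower (from 2). Without siMESH1-7002 replicate 1 the counts called higher were 4 of glycolysis, 1 of the respiratory chain and 3 of the mitochondrial ribosome (from 7, 4 and 7), and without replicate 2 they were 1 and 3 of the last 2 lists. Without siMESH1-7002 replicate 3 or siNT replicate 2 the mitochondrial ribosome had 3 or 4, and without siNT replicate 1 the respiratory chain had 2. Of 199 named genes 197 kept call and direction with DESeq2, 188 with the GC correction, 126 with the test against 0.5 and 147 with all 12 libraries. Depth limits genes below 1 CPM.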

Other observations

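Genes of cilium assembly and motility were higher more often than lower: of 72 tested, 31 were called higher (43.1%, against 26.6% of all genes) and 8 lower (11.1% against 26.7%), with a median log2 fold change of 0.16. The transport motor subunit KIF3A had 20.1, 23.2 and 21.3 CPM with siNT and 32.1, 34.9 and 34.1 CPM with siMESH1-7002 (log2 fold change 0.65, SE 0.069, adjusted p = 6.48e-07), and the carrier protein IFT88 had 10.7, 9.28 and 12.3 CPM with siNT and 14, 15 and 15.2 CPM with siMESH1-7002 (log2 fold change 0.45, SE 0.0945, adjusted p = 0.000743). DNAH7, a dynein of motile cilia, rose furthest (log2 fold change 0.82, SE 0.129, adjusted p = 4.7e-05). RFX3, the factor of cilium genes, was not called (0.19). RFX5, listed as a factor of the same family, fell furthest (log2 fold change -0.80, SE 0.0515, adjusted p = 1.17e-09), and any part of it in cilia was not tested.

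Glycolysis genes gave 7 higher (28.0%, or 12 genes with the GC correction) and 8 lower (32.0%) of 25, near the shares of all genes. Among them were PKM at -0.20, HK2 at -0.37, LDHA not called (0.07) and PDK4, which turns off pyruvate oxidation, highest at 0.99 (log2 fold changes). Genes often used to normalise qPCR were not all level. ACTB had 3617, 3582 and 3427 CPM with siNT and 2632, 2556 and 2603 CPM with siMESH1-7002 (log2 fold change -0.45, SE 0.0381, adjusted p = 4.41e-08), while YWHAZ was 0.34. GAPDH (0.08, adjusted p = 0.0766) and TBP (-0.04, adjusted p = 0.69) were not called. ACTB and GAPDH have close copies. Of 21 renal markers tested 6 were called higher (28.6%, all genes 26.6%), or 10 with the GC correction, and 10 lower (47.6%, all genes 26.7%). Among them PAX8 (-0.08) and PAX2 (0.02) were not called, VIM (-0.18) and KRT18 (-0.33) were lower, and the cadherin CDH2 was higher (log2 fold change 0.56, SE 0.0411, adjusted p = 6.83e-09).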
